A study of Homo sapiens with 6 samples.

Results

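The genes described here are the 4 receptors of the ERBB family (EGFR, ERBB2, ERBB3 and ERBB4) and 6 genes of their ligands (AREG, EREG, HBEGF, TGFA, BTC and NRG1). They were selected by name, and not by their values, as the rows of the deposited table whose gene symbol equals 1 of the 10 names. The table lists 47577 loci, of which 26793 carry a symbol, and each of the 10 genes was found as 1 locus. Gene expression was measured by polyA RNA-seq in OVCAR3, a cell line derived from a high-grade serous ovarian cancer, to ask how inhibition of CDK12 and CDK13 affects its transcripts. The cells grew in RPMI medium with fetal bovine serum and received for 6 h either DMSO, the solvent (3 libraries), or 200 nM THZ531, a covalent inhibitor of both kinases (3 libraries). The titles and the treatment entries of the samples name THZ531, whereas their protocol text names the related compound THZ1. The 3 libraries of a group are biological repeats of 1 cell line, and 1 dose and 1 time were sequenced.

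ERBB receptors are tyrosine kinases of the cell surface that act as pairs. A ligand binds the outer part of EGFR, ERBB3 or ERBB4, the receptors pair with each other or with ERBB2, and the phosphorylated tails recruit adaptors that activate RAS-ERK and PI3K-AKT signalling. ERBB2 has no known ligand, and the kinase of ERBB3 is weak, so that both work mainly through partners. TGFA and AREG bind EGFR, HBEGF, BTC and EREG bind EGFR and ERBB4, and NRG1 binds ERBB3 and ERBB4. All are made as membrane-anchored precursors that proteases release. EGFR and ERBB2 are drug targets in several carcinomas.

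With THZ531, the transcripts of EGFR and of TGFA, a major EGFR ligand in these cells, fell, and those of HBEGF and NRG1 rose, while the log2 fold change of ERBB2 was 0.10. EGFR fell from 4578 ± 229 to 884 ± 39.6 normalized reads (SD, n = 3 in each group), which was 5.18-fold lower. TGFA was 2.33-fold lower, HBEGF was 2.36-fold higher and NRG1 was 1.82-fold higher in THZ531 than in DMSO. ERBB4, a gene with few reads, also fell, but this call rested on 1 DMSO library. A normalized read is the number of reads counted on a gene divided by a size factor of the library. Calls of regulated genes required that the groups differ by 1.5-fold or more with an unadjusted p no larger than 0.05 in limma, and adjusted p-values are those of the Benjamini-Hochberg method over all 17568 loci tested.

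The coding transcripts start in promoters of different composition, and 3 promoters are printed because their genes carried the clearest changes in both directions. A RefSeq promoter (GRCh38.p14, 250 bases before to 50 after the start) that contains the start of the MANE transcript, the reference transcript of a gene, was found for 7 genes: EGFR, ERBB4, AREG, EREG, HBEGF, TGFA and BTC. The sequences below run 5′ to 3′ on the strand of the gene, and capitals mark the GC box, searched as GGGCGG and CCGCCC. EGFR lies at chr7:55018767-55019066 (plus strand), TGFA at chr2:70553777-70554076 (minus strand) and HBEGF at chr5:140346554-140346853 (minus strand).
EGFR promoter: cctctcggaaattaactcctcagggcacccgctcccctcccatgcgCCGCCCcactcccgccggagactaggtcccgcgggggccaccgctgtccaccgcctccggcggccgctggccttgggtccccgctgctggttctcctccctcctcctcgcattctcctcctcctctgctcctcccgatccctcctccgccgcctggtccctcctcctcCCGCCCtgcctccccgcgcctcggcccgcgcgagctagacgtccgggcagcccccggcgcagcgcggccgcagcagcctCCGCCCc
TGFA promoter: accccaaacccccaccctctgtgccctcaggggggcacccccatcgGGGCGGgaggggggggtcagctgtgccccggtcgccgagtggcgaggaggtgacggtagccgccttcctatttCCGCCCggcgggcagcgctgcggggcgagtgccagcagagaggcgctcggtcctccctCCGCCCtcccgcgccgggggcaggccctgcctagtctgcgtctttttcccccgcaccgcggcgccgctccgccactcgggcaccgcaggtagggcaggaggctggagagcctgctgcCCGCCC
HBEGF promoter: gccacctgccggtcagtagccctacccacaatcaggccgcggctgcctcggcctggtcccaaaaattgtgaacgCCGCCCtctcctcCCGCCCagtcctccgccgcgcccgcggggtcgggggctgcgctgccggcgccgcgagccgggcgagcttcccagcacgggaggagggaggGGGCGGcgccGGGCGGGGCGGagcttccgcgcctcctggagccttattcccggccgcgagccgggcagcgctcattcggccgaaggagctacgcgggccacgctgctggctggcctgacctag
The EGFR promoter held 3 GC boxes, that of TGFA held 4 and that of HBEGF held 5, of which a pair overlapped by 1 base in the longest run of capitals. A GC box was present in 6 of the 7 promoters, all but that of EREG, against 45% of the 35116 promoters of the same length. The TATA motif, searched as TATAAA and TTTATA, was present in AREG and EREG only, that is in 2 of 7, against 11.5% of all promoters. The GC content was 75.33% in EGFR and TGFA and 75% in HBEGF, and it ranged down to 57.67% in EREG, with a median of 58.67% over all promoters. The 3 printed promoters had nearly the same GC content and no TATA motif. These matches describe the letters in the windows and were not tested for binding or for a relation to the fold changes.

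Intron 1 of EGFR is shown as well, because it holds the only locus without a symbol inside any of the 10 genes that had enough reads to be tested. This locus covers 2110 bases and lies 6501 to 8610 bases into the intron, which is 122920 bases long. The windows below are from hg38, plus strand, 5′ to 3′: the splice donor of the intron at chr7:55019346-55019395 with its GT in capitals, and 2 windows with AATAAA, the most common poly(A) signal motif, in capitals.
EGFR intron 1 splice donor: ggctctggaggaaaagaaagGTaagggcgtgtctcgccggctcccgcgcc
AATAAA 1, chr7:55021136-55021195: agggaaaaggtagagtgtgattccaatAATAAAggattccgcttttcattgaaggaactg
AATAAA 6, chr7:55027894-55027953: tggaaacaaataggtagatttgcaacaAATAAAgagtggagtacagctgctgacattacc
The motif was searched on the transcribed strand only and occurred 90 times in intron 1. The first copy shown is the first of the intron, after 1797 intron bases. In all, 4 copies came before the locus and 2 lay inside it, and the window numbered 6 shows the last of these. It started 54 bases before the annotated end of the locus, and a further 114310 bases of intron followed that end.

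The libraries held between 53054048 and 70986130 reads counted on genes, 60146046 to 70986130 in DMSO and 53054048 to 57953296 in THZ531, and the size factors were larger in DMSO. Counts of reads over few genes carry counting error on top of the spread between libraries, so that ERBB4, with 10 to 61 reads in a library, was measured far less precisely than ERBB2, with 5498 to 8276. Of the 10 markers of serous ovarian epithelium that were listed, 10 had at least 10 normalized reads in every library. Their sum was 498869 to 512522 in DMSO and 625056 to 640521 in THZ531, most of it KRT7, KRT8, KRT18 and KRT19. PAX8, the Müllerian lineage factor among them, was 11272 in DMSO and 1241.5 in THZ531. MUC16 (4598 and 3334) and WT1 (650 and 579) also had lower means in THZ531, and the other listed markers had higher ones. Of 5 immune markers, CD3E had 0 reads in every library, and the sum was 528 to 598 in DMSO and 517 to 598 in THZ531. The sum of 5 fibroblast markers was 995 to 1088 in DMSO and 2140 to 2412 in THZ531, nearly all of it COL1A1, with LUM and DCN at 0 in THZ531 and at no more than 3.19 in DMSO. The sum of 4 endothelial markers was 231 to 286 in DMSO and 308 to 420 in THZ531. The part of these shifts in the results below was not tested. All libraries are of OVCAR3 cells, so these lists describe transcripts of the cell line and do not count other cell types. In bulk RNA, fewer cells with a transcript and less of it per cell cannot be told apart.

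All 10 genes had at least 10 normalized reads in all 6 libraries and entered the test, so none passed the minimum through 1 group alone. Of the 10, 5 were called regulated, 2 up and 3 down, against 39.5% of all loci tested, 15.7% up and 23.9% down. At an adjusted p of at most 0.05 and any fold change, 9 passed in limma, 5 up and 4 down, against 68.6% of all loci, 34.6% up and 34.1% down. The libraries of the groups did not overlap for 8 genes, against 71.7% of all loci. The median log2 fold change was -0.06 over the 10 genes and -0.01 over all loci tested. The share of ERBB genes that moved was thus near that of the whole table, and what follows describes which of them moved and by how much.

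**Figure D1:**
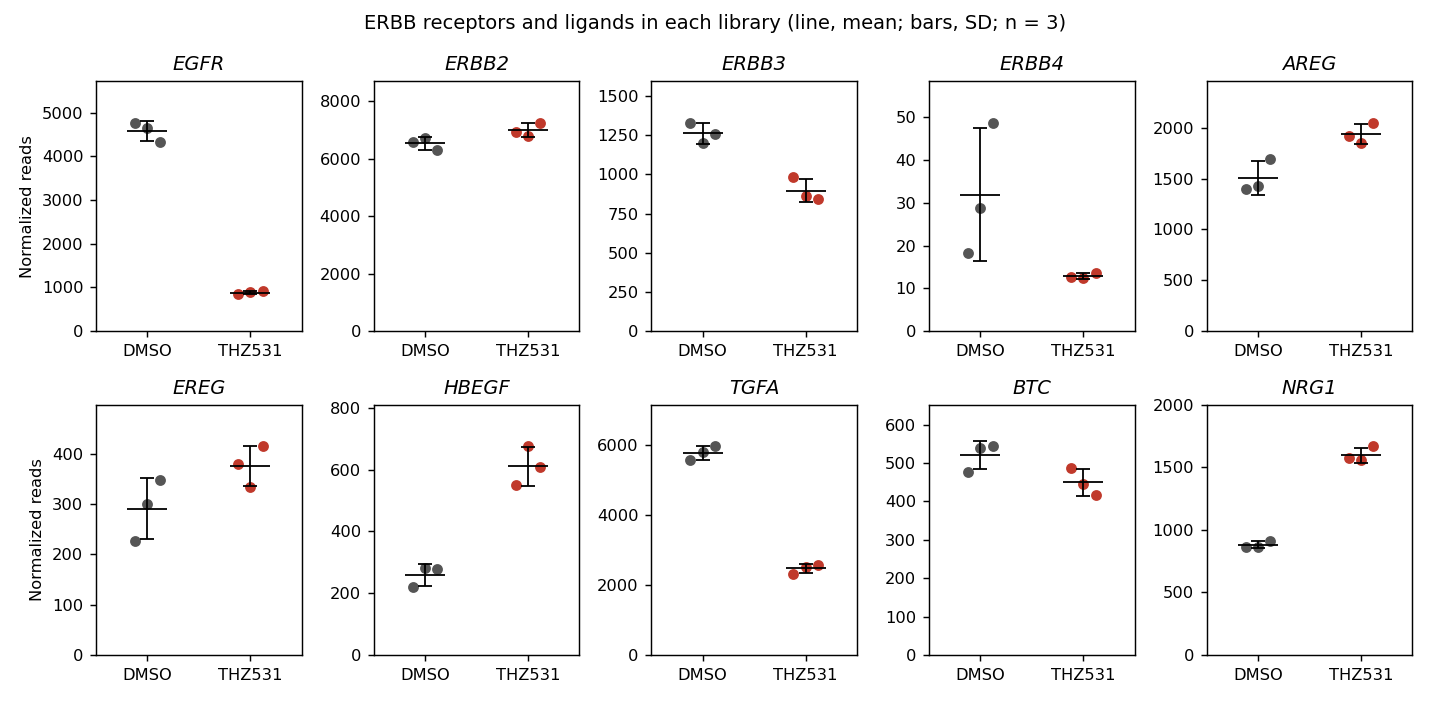
Normalized reads (y axis, linear, a separate scale for each gene, each starting at 0) of the 10 genes in the 3 DMSO and 3 THZ531 libraries, with the mean as a line and the SD as bars. The groups are apart for EGFR (4323 to 4767 against 841 to 919), TGFA, HBEGF and NRG1, and overlap for EREG and BTC.

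Among the receptors, EGFR, which binds the widest set of ligands here, gave 4767, 4642 and 4323 normalized reads in the DMSO libraries and 841, 892 and 919 in the THZ531 libraries, here and below in the order of replicates 1 to 3. The highest THZ531 library was far below the lowest DMSO library. The log2 fold change was -2.37 with a standard error (SE) of 0.06 and a 95% interval of -2.49 to -2.25 (limma, Benjamini-Hochberg adjusted p = 2.6e-14).

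ERBB2, the partner without a ligand and the receptor with the most reads, gave 6570, 6723 and 6297 in DMSO and 6925, 6799 and 7247 in THZ531. The 6 libraries lay close together, although every THZ531 library was above every DMSO library. The log2 fold change was 0.10 with a 95% interval of 0.01 to 0.19 (limma, adjusted p = 0.045), below the fold threshold. ERBB2 missed the adjusted threshold without THZ531 replicate 3 (limma, adjusted p = 0.19), without DMSO replicate 3 (0.14) and without THZ531 replicate 1 (0.076). With all libraries, it missed the threshold in limma with upper quartile scaling (adjusted p = 0.10), without trend (0.15), with a replicate block (0.066) and with no minimum (0.067). In edgeR the adjusted p was 0.11. The sign of the log2 fold change depended on the scaling: it was -0.14 when all libraries were given the same total and -0.39 when they were scaled to RPL34, a ribosomal protein gene. The annotated ERBB2 locus shares bases with 2 neighbours on the opposite strand, 144 bases with PGAP3 and 158 with MIEN1, and whether reads were counted by strand was not given in the sources used here. PGAP3 averaged 167 in DMSO and 143 in THZ531, and MIEN1 1248 ± 71.0 and 1582 ± 55.0 (SD, n = 3), both below ERBB2.

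ERBB3, the receptor of neuregulins with a weak kinase, gave 1329, 1198 and 1254 in DMSO and 980, 863 and 843 in THZ531. All 3 THZ531 libraries were below the DMSO libraries. The mean was 1.41-fold lower and the log2 fold change was -0.49 with a 95% interval of -0.65 to -0.34 (limma, adjusted p = 1.9e-05), so that ERBB3 passed the adjusted p but not the fold threshold. It was called with the same total, at -0.74, and with RPL34, at -0.99, but not with upper quartile scaling, at -0.52.

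ERBB4, the other neuregulin receptor, gave 18.3, 28.8 and 48.7 normalized reads in DMSO, from 23, 31 and 61 reads, and 12.6, 12.5 and 13.7 in THZ531, from 10, 11 and 12 reads. DMSO replicate 3 stood above the other DMSO libraries, and the lowest DMSO library was close to the THZ531 libraries. The log2 fold change was -1.13 with a 95% interval of -2.07 to -0.20 (limma, adjusted p = 0.032). Without DMSO replicate 3 it was -0.78 (limma, adjusted p = 0.19) and the gene was no longer called. Without DMSO replicate 2 or THZ531 replicate 1 or 2 it stayed called, at adjusted p-values of 0.057 to 0.069 in limma.

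Among the ligands of EGFR, TGFA gave 5557, 5788 and 5955 normalized reads in DMSO and 2322, 2522 and 2577 in THZ531. The groups were far apart in relation to their spread. The log2 fold change was -1.22 (SE 0.05, 95% interval -1.33 to -1.12, limma, adjusted p = 6.3e-12).

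HBEGF, the heparin-binding ligand, gave 219, 280 and 278 in DMSO and 549, 675 and 609 in THZ531. Every THZ531 library was above every DMSO library. HBEGF had a log2 fold change of 1.24 (SE 0.12, 95% interval 0.98 to 1.49, limma, adjusted p = 1.5e-07).

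AREG, or amphiregulin, gave 1393, 1429 and 1695 in DMSO and 1921, 1853 and 2049 in THZ531. The groups did not overlap, but DMSO replicate 3 came near the THZ531 libraries. Its log2 fold change was 0.37 with a 95% interval of 0.22 to 0.52 (limma, adjusted p = 2.6e-04), under the fold threshold, and -0.12 with RPL34 scaling.

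EREG, or epiregulin, gave 226, 299 and 347 in DMSO and 379, 334 and 414 in THZ531. The highest DMSO library was above the lowest THZ531 library. Its log2 fold change was 0.39 with a 95% interval of 0.07 to 0.70 (limma, adjusted p = 0.028) and -0.11 with RPL34 scaling, and it was not called. Without DMSO replicate 1 it was 0.22 (limma, adjusted p = 0.15). EREG also missed the adjusted threshold without THZ531 replicate 1 (limma, adjusted p = 0.068), without THZ531 replicate 3 (0.11) and with the same total, at a log2 fold change of 0.14 (limma, adjusted p = 0.39). In limma without trend EREG missed this threshold as well (adjusted p = 0.11).

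BTC, or betacellulin, gave 478, 539 and 543 in DMSO and 486, 444 and 418 in THZ531. The groups overlapped through DMSO replicate 1 and THZ531 replicate 1. The log2 fold change of -0.21 had a 95% interval that nearly reached 0 (limma, unadjusted p = 0.047, adjusted p = 0.066), and BTC was the 1 gene of the 10 that missed the adjusted threshold. BTC passed this threshold with the same total (limma, adjusted p = 6.1e-04), with upper quartile scaling (limma, 0.047) and in edgeR (adjusted p = 0.042). It also passed without DMSO replicate 1 (limma, adjusted p = 0.031) and without THZ531 replicate 1 (0.038). With RPL34 scaling BTC was called, at -0.70.

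NRG1, or neuregulin 1, the ligand of ERBB3 and ERBB4, gave 866, 861 and 913 in DMSO and 1573, 1556 and 1668 in THZ531. All 3 treated libraries were above the controls, and the spread within each group was small. This was a log2 fold change of 0.86 (SE 0.06, 95% interval 0.73 to 0.99, limma, adjusted p = 5.0e-09). With RPL34 scaling NRG1 was at 0.37, below the fold threshold.

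**Figure D2:**
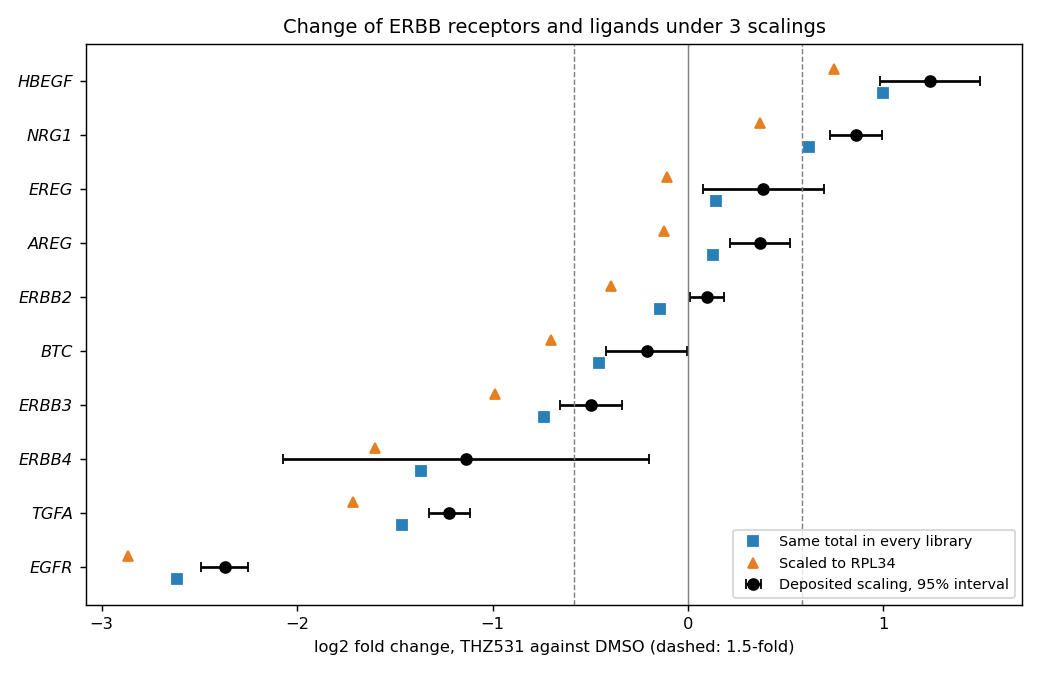
Log2 fold change of THZ531 against DMSO (x axis) for each gene (y axis), with the 95% interval of limma under the deposited scaling (black), and the value with the same total in every library (blue) and scaled to RPL34 (orange). EGFR, TGFA and ERBB4 are below the lower dashed 1.5-fold line and HBEGF is above the upper one under all 3 scalings, whereas ERBB2 changes sign under both alternatives and AREG and EREG change sign with RPL34.

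The deposited scaling assumes that most genes keep their level. Given the same total, the median log2 fold change of all loci moved by -0.24, and scaled to RPL34 by -0.49, and all 10 genes moved down with it. With RPL34 scaling 1 gene was called up (HBEGF) and 5 were called down (EGFR, TGFA, ERBB3, ERBB4 and BTC), against 2 up and 3 down under the deposited scaling.

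A ratio of genes within a library does not depend on the scaling, and each of the other 9 genes was therefore divided by ERBB2 in the same library. On the log2 scale, the ratio of EGFR to ERBB2 was -0.46, -0.53 and -0.54 in DMSO and -3.04, -2.93 and -2.98 in THZ531, a difference of -2.47 (SE 0.04). The ratio of TGFA to ERBB2 differed by -1.32 (SE 0.07), that of HBEGF by 1.14 (SE 0.16) and that of NRG1 by 0.76 (SE 0.05). For ERBB3 the difference was -0.59 (SE 0.10), for ERBB4 -1.23 (SE 0.41), for BTC -0.31 (SE 0.11), for AREG 0.27 (SE 0.12) and for EREG 0.29 (SE 0.21). The groups did not overlap for 8 of the 9 ratios, all but that of EREG. In a two-sided exact permutation test each of the 8 gave p = 0.1, the smallest that 3 against 3 libraries allow, and EREG gave p = 0.3. Adjusted over the 9 ratios, the values were 0.1125 and 0.3, so that this design cannot bring a ratio below 0.05.

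Levels of different genes were compared per kb of the MANE transcript (GENCODE v44), since longer transcripts collect more reads. Among the receptors in DMSO, ERBB2 was highest with 1433 ± 47.3 normalized reads per kb, followed by EGFR with 462 ± 23.1, ERBB3 with 224 ± 11.7 and ERBB4 with 2.64 ± 1.28 (SD, n = 3). No neighbours in this order overlapped. In THZ531 the order was ERBB2 (1534 ± 50.7), ERBB3 (159 ± 13.2), EGFR (89.3 ± 3.99) and ERBB4 (1.07 ± 0.0528), again without overlap. EGFR and ERBB3 had thus exchanged places per kb. Without division by length, their THZ531 libraries overlapped, with 841, 892 and 919 normalized reads for EGFR and 980, 863 and 843 for ERBB3. The exchange therefore depends on the transcript lengths used, 9905 bases for EGFR and 5615 for ERBB3. EGFR made up 21.3% to 22.3% of the summed receptor reads per kb in the DMSO libraries and 4.77% to 5.19% in the THZ531 libraries. The share of ERBB2 was 66.7% to 68.3% in DMSO and 85.4% to 86.7% in THZ531.

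Among the ligands in DMSO, TGFA (1401 ± 48.6 normalized reads per kb) and AREG (1220 ± 133) were highest and their libraries overlapped. BTC (196 ± 13.8) and HBEGF (110 ± 14.8, a mean of 109.953) came next, and NRG1 (73.4 ± 2.38) and EREG (63.0 ± 13.2) were lowest and overlapped with each other. In THZ531 the order was AREG (1573 ± 80.7), TGFA (601 ± 32.5), HBEGF (259 ± 26.7), BTC (169 ± 13.0), NRG1 (133 ± 5.02) and EREG (81.4 ± 8.68), and no neighbours overlapped. The place of NRG1 depends on its transcript length of 11983 bases. Without division by length, its mean in DMSO was 880, above BTC (520) and HBEGF (259). In THZ531 the undivided mean of NRG1 was 1599, above HBEGF (611) and BTC (449). The 5 EGFR ligands among the 10 genes were summed in reads per kb, without EGF and EPGN, which also bind EGFR. Of this sum, TGFA held 44.9% to 48.2% in DMSO and 21.5% to 23.2% in THZ531. AREG held 39.2% to 42.7% in DMSO and 56.9% to 59.5% in THZ531, and the mean share of HBEGF was 3.67% and 9.66%. Thus AREG took the larger share of these 5 ligands per kb in every THZ531 library, and TGFA in every DMSO library. Without division by length, TGFA had more normalized reads than AREG in every library of both groups. These shares count reads on a locus, which can include transcripts that encode no complete protein.

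**Figure D3:**
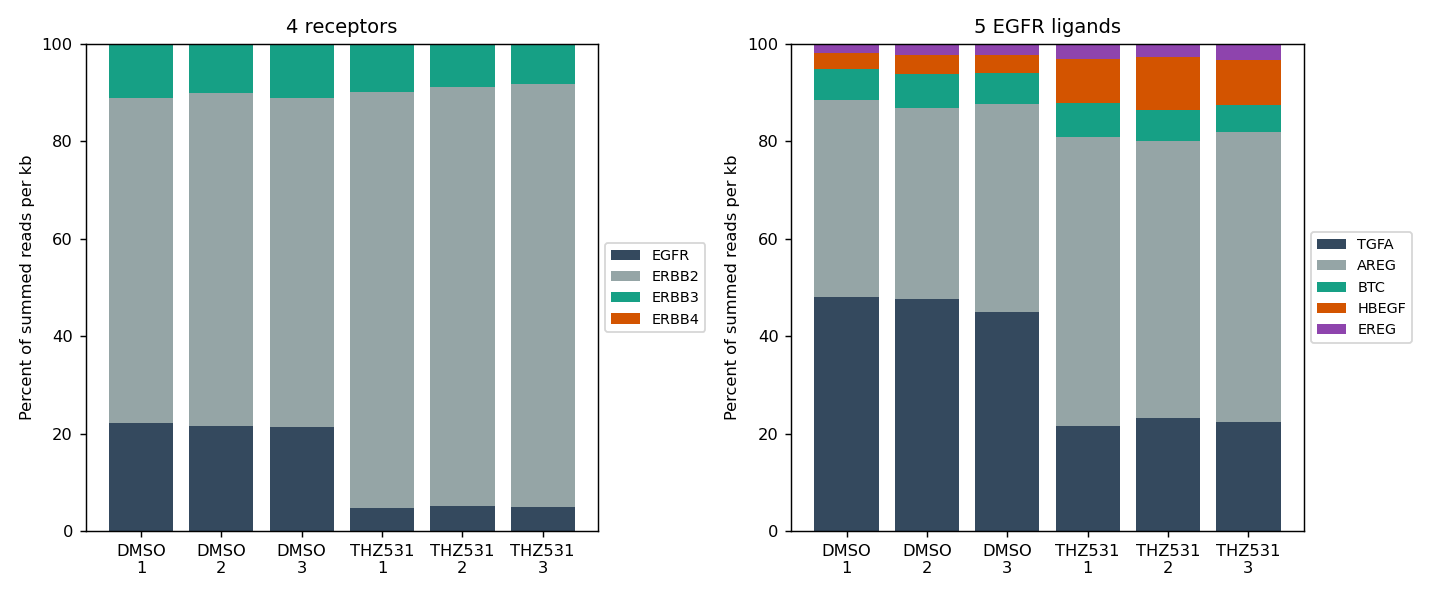
Share (y axis, percent) of each gene in the summed normalized reads per kb of the 4 receptors (left) and of the 5 ligands that bind EGFR (right), with 1 stacked bar per library. The share of EGFR is near 22% in DMSO and near 5% in THZ531, TGFA and AREG exchange places, and ERBB4 is too small to be seen.

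The genes differ widely in structure. EGFR spans chr7:54974225-55256604 (hg38, plus strand) with 28 exons in its MANE transcript and a first intron of 122920 bases. TGFA spans chr2:70447284-70553826 (minus strand) with 6 exons and a longest intron of 49122 bases, and ERBB4 spans chr2:211375717-212538802 (minus strand) with 28 exons and a first intron of 413545 bases. HBEGF spans chr5:140332843-140349342 (minus strand) with 6 exons and no intron over 6607 bases, and ERBB2 spans chr17:39687914-39728658 (plus strand) with 27 exons and no intron over 6678 bases. The locus of NRG1, on the plus strand of chromosome 8, covers 1134825 bases. Its MANE transcript spans 225736 of these bases, with 12 exons and a longest intron of 111063 bases. The 3 genes called down (EGFR, TGFA and ERBB4) each had an intron of 49122 bases or more, but so did NRG1, which rose. The motif AATAAA was counted in the introns of the MANE transcripts, on the transcribed strand only. It occurred 143 times in EGFR, 70 times in TGFA, 1733 times in ERBB4 and 277 times in NRG1. It occurred 6 times in HBEGF, 8 in ERBB2, 6 in ERBB3, 8 in AREG, 21 in EREG and 55 in BTC. These counts are not divided by intron length. Per kb of intron, the motif count was 0.78 in EGFR, 0.68 in TGFA, 1.51 in ERBB4 and 1.30 in NRG1. Per kb it was 0.53 in HBEGF, 0.33 in ERBB2, 0.34 in ERBB3, 0.93 in AREG, 1.11 in EREG and 1.17 in BTC. With 10 genes these features are a description, and no relation to the fold change was tested.

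Inside the coordinates of the 10 genes the table lists 12 loci without a symbol, 6 in EGFR, 3 in NRG1, 2 in ERBB2 and 1 in ERBB3, and 1 of them had enough reads to be tested. It lies at chr7:55025866-55027975, wholly in intron 1 of EGFR, and its sequence windows are shown above. It gave 22.2, 20.4 and 27.1 normalized reads in DMSO, from 28, 22 and 34 reads, and 151, 148 and 131 in THZ531, from 120.0, 130 and 115 reads. All THZ531 libraries were above all DMSO libraries, opposite to EGFR itself. Its log2 fold change was 2.58 (SE 0.25, 95% interval 2.05 to 3.11, limma, adjusted p = 1.5e-07), and its mean was 6.16-fold higher. Set against EGFR in the same library, the locus had 0.511% of the reads of EGFR on average in DMSO and 18.0%, 16.6% and 14.2% in THZ531 replicates 1, 2 and 3. The strand of this locus is not given in the table, and reads of a separate transcript and of the EGFR intron cannot be told apart there.

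**Figure D4:**
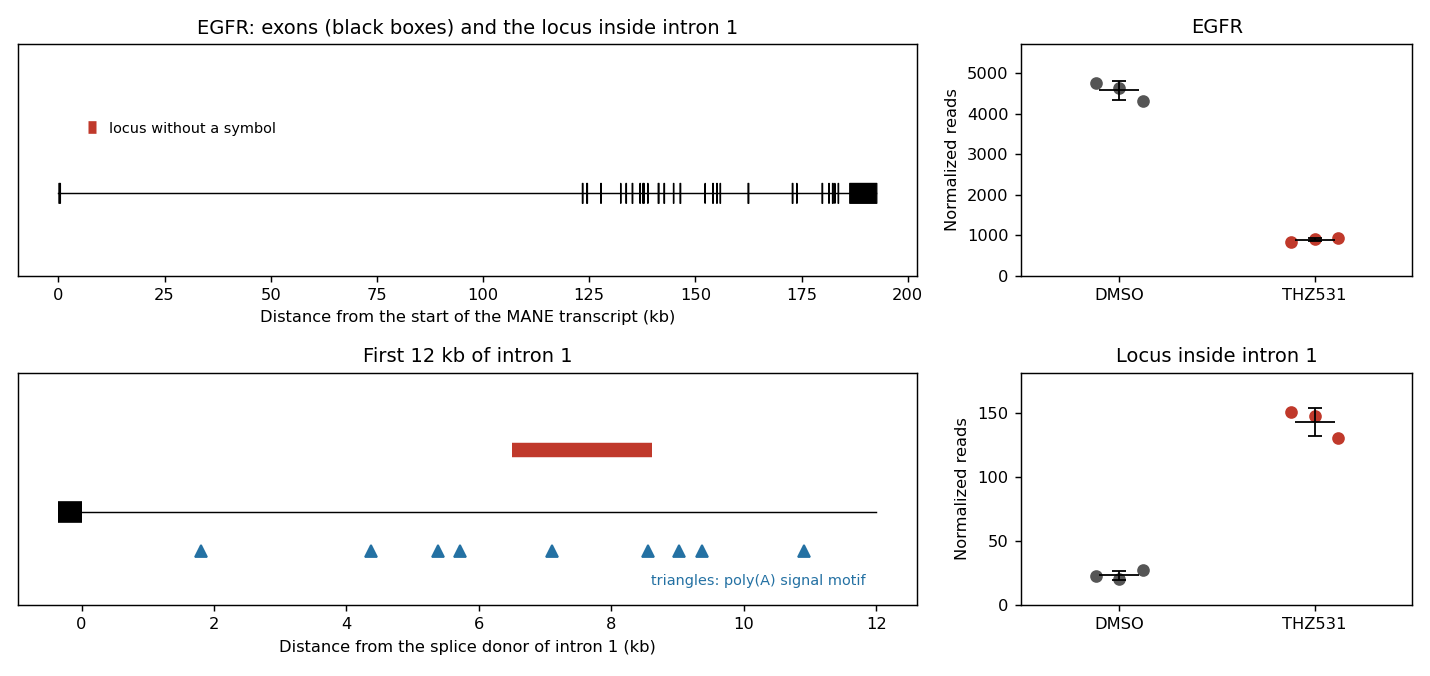
Left, EGFR drawn to scale against distance in kb, with exons as black boxes (outlined, so that short exons are drawn slightly wider), the locus without a symbol in red and the poly(A) signal motif as triangles, for the whole MANE transcript (top) and the first stretch of intron 1 (bottom). Right, normalized reads per library with mean and SD (n = 3), which were 4578 in DMSO and 884 in THZ531 for EGFR and 23.3 and 143 for the locus.

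Further genes of the pathway were taken as 6 lists by role, 55 genes in all, of which 53 were tested. Of these, 7 were called up, 8 down and 38 were not called, so that 28.3% were called against 39.5% of all loci. Their median log2 fold change was 0.04, against -0.01 over all loci.

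The other ligands gave 2 genes called down of 4 tested and a median log2 fold change of -0.99. EPGN, or epigen, an EGFR ligand, fell by 2.26 on the log2 scale (SE 0.22, limma, adjusted p = 1.4e-07), and NRG2, a second neuregulin, fell from 743 to 334 normalized reads (log2 fold change -1.15, SE 0.09, limma, adjusted p = 9.9e-09). EGF was 200.2 in DMSO and 184 in THZ531, NRG4 33.9 and 18.2, and neither was called. NRG3 had no reads.

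Of the 4 genes of ligand shedding, 1 was called, and the median log2 fold change was -0.26. RHBDF2, which encodes iRhom2, a partner that brings the protease ADAM17 to the cell surface, fell from 3871 to 1059 normalized reads (log2 fold change -1.87, SE 0.05, limma, adjusted p = 1.4e-13). The proteases themselves were not called: ADAM10 was 21035 in DMSO and 21046 in THZ531, with a log2 fold change of 0.00, and ADAM17 was 688 and 958, with a log2 fold change of 0.48.

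Of the 10 receptor adaptors, 2 were called up and 1 down, with a median log2 fold change of -0.02. CRK, an SH2 and SH3 adaptor, fell from 1705 to 650.4 normalized reads (log2 fold change -1.39, SE 0.06, limma, adjusted p = 3.1e-11). PLCG1, a phospholipase that binds phosphorylated receptors, rose from 1953 to 3246 (log2 fold change 0.73, limma, adjusted p = 3.9e-09), and GAB1, a docking protein, from 127 to 205 (log2 fold change 0.70, limma, adjusted p = 0.0014). GRB2, the adaptor that links receptors to RAS, was 11876 in DMSO and 16989 in THZ531 and was not called at a log2 fold change of 0.52.

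Of 12 genes listed as negative regulators of the receptors, 3 were called up and 3 down, with a median log2 fold change of 0.20. Whether each of them restrains the receptors in these cells was not tested. LRIG2 fell from 393 to 94.4 normalized reads (log2 fold change -2.14, SE 0.26, limma, adjusted p = 1.6e-06), while LRIG1, a related membrane protein that promotes receptor degradation, rose from 863 to 1488 (log2 fold change 0.79, SE 0.08, limma, adjusted p = 1.5e-07). RNF41, a ubiquitin ligase of ERBB3, fell from 1303 to 380.3 (log2 fold change -1.77, SE 0.12, limma, adjusted p = 1.4e-09), and SOCS5 rose from 1639 to 3155 (log2 fold change 0.95, SE 0.06, limma, adjusted p = 5.3e-10). The remaining called genes, CBLC at a log2 fold change of -0.70 and LRIG3 at 0.60, are named after their values were seen. The ubiquitin ligase CBL had a log2 fold change of -0.55 and ERRFI1, an inhibitor of the EGFR kinase, of 0.52, and neither was called.

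Downstream, 2 of 13 genes of the RAS-ERK cascade were called up and none down, with a median log2 fold change of 0.25. Both lost their call with the same total and with RPL34 scaling. Of 10 genes tested of the PI3K-AKT cascade, PIK3CD, a catalytic subunit of PI3K, was the 1 called, and it fell from 2088 to 1029.5 (log2 fold change -1.02, SE 0.07, limma, adjusted p = 3.1e-09). The median of this list was 0.10, and AKT1 and AKT2 were not called, at log2 fold changes of 0.04 and 0.38. The rises of GAB1, PLCG1, LRIG1 and LRIG3 were below the fold threshold with the same total and with RPL34 scaling, and that of SOCS5 with RPL34 scaling only.

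**Figure D5:**
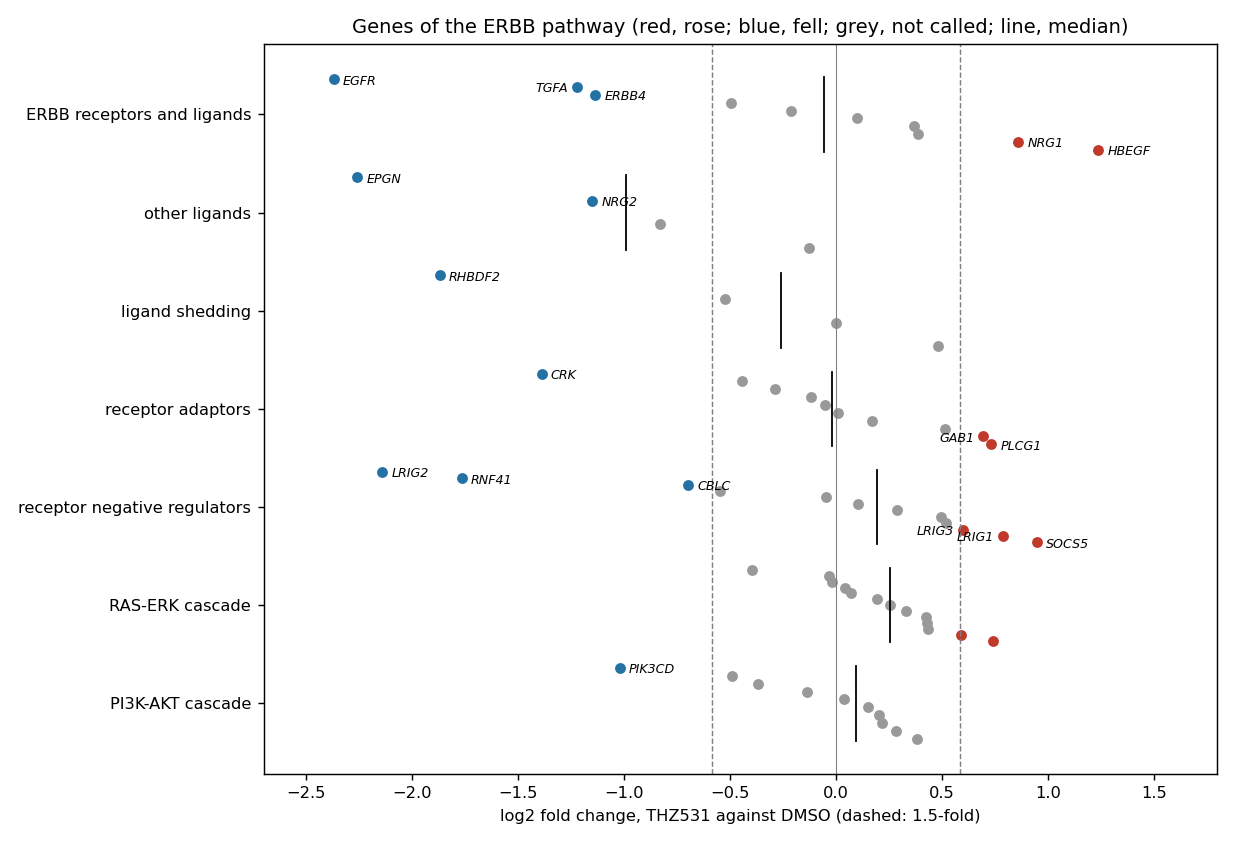
Log2 fold change of THZ531 against DMSO (x axis, deposited scaling) for the 10 genes and the 6 lists of the pathway (y axis), with genes called up in red, called down in blue and not called in grey, and the median of each list as a line. Under the deposited scaling the called genes lie on both sides of 0 among receptors and ligands, adaptors and negative regulators; called genes of the RAS-ERK list are above 0 and those of the ligand shedding, other ligand and PI3K-AKT lists below, and the rises of GAB1, PLCG1, LRIG1 and LRIG3 lost their call with the same total and with RPL34 scaling.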

How the data were processed

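PolyA RNA-seq reads of 6 OVCAR3 libraries were mapped by the authors to hg38 with STAR (2.7.5a per the labels), counted on FAST DB genes with featureCounts, and deposited as DESeq2-normalized values. These deposited values are a signal, namely read counts after division by the size factor of their library, without correction for gene length. The counts were recovered from them: 100% of the values were whole reads within 0.01. All value columns were used.

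Loci reaching 10 in 3 or more libraries were tested on log2(value + 1) with limma 3.58.1 (trended variance, R 4.3.3), with no covariates, and adjusted by the Benjamini-Hochberg method over all 17568. Because of the added 1, fold changes of low genes are understated. Recovered counts were also tested with edgeR 4.0.16 and DESeq2 1.42.0, which called 6863 and 6788 loci against 6948. The fit was tested on simulated data. Ratios to ERBB2 were tested by exact permutation in scipy 1.17.1.

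The members and the gene lists were chosen with earlier results of these data known. Named were all members, the pathway genes with the largest or second largest change of their list in each direction among those called, the tested loci inside a member without a symbol, and the 3 single-symbol genes closest in profile to EGFR and to HBEGF. Some genes of the downstream lists and 1 sequence window are counted but not reported here. Groups follow the titles of the samples. Alternatives were pseudocounts of 0.1 and 10, minimum values of 0 and 50, 3 other scalings, a replicate block, limma without trend, a 2-fold threshold, the adjusted p as threshold, edgeR, DESeq2, and leaving out each library. Promoters are from RefSeq and transcript structures from GENCODE v44. NRG1 was left out of the promoters, and no promoter matched the MANE start of ERBB2 or ERBB3.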

Additional observations from a re-analysis of the deposited data

How the results depend on the processing

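Of 169 values of the 10 genes under the alternatives, 160 kept their direction and their side of the threshold. With the same total, ERBB2 reversed to -0.14 and ERBB3 was called at -0.74. With RPL34 scaling ERBB2 reversed to -0.39, AREG to -0.12 and EREG to -0.11, ERBB3 (-0.99) and BTC (-0.70) were called, and NRG1 (0.37) was not, so that 1 gene was called up and 5 down. These shifts follow from the scaling, since the median of all loci moved with it by -0.24 and -0.49. The share of calls that were up over all loci was 39.6% as deposited, 22.7% with the same total and 12.5% with RPL34. At a fold change of 2, 4042 loci were called against 6948, and 1 of the 10 genes was up.

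Counts of called genes in the lists also moved. With RPL34 scaling 4 other ligands, 2 shedding genes, 1 RAS-ERK gene and 4 PI3K-AKT genes were called, and with the same total 2 shedding, 1 RAS-ERK and 3 PI3K-AKT genes. At a fold change of 2, 1 adaptor, 2 negative regulators and 0 RAS-ERK genes passed. RAS-ERK gave 1 called gene with the upper quartile and with edgeR, and 1 to 2 when single libraries were left out, with 1 without DMSO replicate 1. Leaving out single libraries gave ERBB4 values from -1.47 to -0.78, the latter without DMSO replicate 3. No alternative reversed one of the 72 ratios to ERBB2, and all ratio p-values with a library left out were limited by the design.

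Replicates of the same number in both groups deviated with correlations of 0.00, 0.02 and -0.04, so they share only a number. With the replicate block 6918 loci were called against 6948, and EGFR stayed at -2.37. Over all pairs of a DMSO and a THZ531 library, the correlations ran from -0.04 to 0.03. ERBB4 had no value with a minimum of 50, because it was then not tested, and its depth of 10 to 61 reads limits its precision.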

Other observations

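EREG, AREG, BTC and EPGN lie on chromosome 4 within 486 kb, and their values differed. EPGN, at chr4:74308470-74316789, gave 250.1, 181 and 191 normalized reads in DMSO and 50.4, 35.2 and 42.1 in THZ531. Its libraries did not overlap between groups and its log2 fold change was -2.26 (limma, Benjamini-Hochberg adjusted p = 1.4e-07). EREG (chr4:74365143-74388760) and AREG (chr4:74445132-74455010), which follow on the same chromosome, had log2 fold changes of 0.39 and 0.37, and BTC (chr4:74744759-74794672) of -0.21, and none of these was called. EREG and AREG were at -0.11 and -0.12 with RPL34 scaling.

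Over the 6 libraries, the profiles of 11678 genes with a mean of at least 100 were compared with that of EGFR by Euclidean distance on the log2 scale, after centring on the DMSO mean. The closest were TMEM92 (distance 0.121, log2 fold change -2.42), ABHD15 (0.172, -2.28) and TNFSF14, a ligand of the tumour necrosis factor family (0.193, -2.38). For HBEGF, the called gene with the largest rise among the 10, they were the exoribonuclease gene XRN1 (0.227, 1.17), ZNF460 (0.237, 1.16) and KHDRBS3 (0.238, 1.31).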
